A study of Mus musculus with 4 samples.

Results

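Weak promoter peaks of the transcription factor RFX2 that recurred in both replicates were described in mouse testis chromatin, and there were 524 of them. The data came from ChIP-seq, in which chromatin is fragmented, enriched with an antibody for the DNA that a protein occupies, and sequenced. The series held 4 samples, namely 2 RFX2 ChIP replicates and 2 inputs, which were chromatin sequenced without antibody. All were labelled as testis of wild type (WT) mice, with no transgene or treatment named, on a mixed C57BL/6, 129/Sv and FVB/N background at postnatal days 29 to 30. The text of the study describes younger animals and dissociated germ cells, and the peak lists do not settle which applies. The lists hold positions and scores but no RNA, so the labelled tissue was not checked against cell type markers. From the lists alone, signal of spermatocytes, spermatids and somatic cells cannot be told apart. By staining, the study found RFX2 protein in pachytene spermatocytes and early round spermatids. It cites earlier work in which Sertoli cells had no detectable RFX2.

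The members were selected on peak calls. Each was a peak of replicate 1 that met a replicate 2 peak by at least 1 bp and met no peak of the combined list, a shorter list of 2726 peaks that all had a −log10 p of at least 43.2. How that list was selected is not stated in the file. It also met a promoter, defined as 1000 bp upstream to 500 bp downstream of the 5′-most transcription start site (TSS) of a protein-coding gene in GRCm38. The 524 members were 1.32% of the 39825 replicate 1 peaks and 26.1% of the 2007 that met a promoter. They touched the promoters of 579 genes, which were 2.65% of 21853 protein-coding genes. For comparison, 980 genes, or 4.48%, had a promoter peak in the combined list. No read counts accompany the lists, so depth is unknown, and the intervals given below are 95% Wilson intervals that cover counting error only.

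RFX2 belongs to the Regulatory Factor X family of winged-helix transcription factors. These proteins bind the X-box, an inverted repeat whose arms lie close together, and in many animals they switch on genes for building cilia. The sperm tail is built on a ciliary axoneme, and RFX proteins are known regulators of ciliary genes in germ cells and in multiciliated tissues. An X-box can also vary in its bases and in the distance between its arms.

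The X-box was read from the data, as the self-complementary word of 14 bases present at the largest number of combined summits. The word GTTGCCATGGCAAC was found at 163 of the 2726 summits. A member was said to hold an X-box where a run with at most 3 mismatches to this word lay within 200 bp around the centre of the replicate 1 peak. No member held the perfect word, 10 held it with 1 mismatch, 52 with 2 and 78 with 3. The 10 closest sites are printed because they show which base varied. They are given 5′ to 3′ on the strand of the gene, with the X-box in capitals.

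Sult2b1, chr7:45785220-45785233: gagggagcGTTGTCATGGCAACtggttccc
Prelp, chr1:133920960-133920973: gagcaggtGTTGCCATGGGAACtggacact
Apobec4, chr1:152750519-152750532: ttccaaacGTTGCCATGGCACCaattcaac
Chn1, chr2:73775397-73775410: gcgcgcccGTTGCCATGGTAACgcgcgctc
Ets2, chr16:95701468-95701481: gatggggaGTTGCCATGGAAACcaggaacc
Radil, chr5:142550769-142550782: cttgctcgGTTGCCATGGAAACcggcgagc
Prkar2a, chr9:108689290-108689303: tgggtttgGTTGCCATGGTAACagctagtc
Gabrg1, chr5:70843256-70843269: gctttctgGTTGCCATGGTAACccttgggc
Kdm6b, chr11:69413792-69413805: ttttccagGTTGCCATGGAAACcgaatctc
Aspdh, chr7:44464659-44464672: ggatcctgGTTACCATGGCAACaatgcggc

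In 8 of these 10 sites the changed base was the fourth from the outer end of an arm, which is position 4 or 11 of the word. The same base varied most in all 140 X-boxes of the members. It held 116 of their 348 mismatches, or 82.9 per 100 X-boxes, whereas the outermost base held 14. Strong promoter peaks, meaning replicate 1 promoter peaks that met both replicate 2 and the combined list, had 64.0 mismatches per 100 X-boxes at this base. Weak replicated peaks outside promoters had 69.6. Promoter peaks of replicate 1 that met neither replicate 2 nor the combined list had 75.9. The fourth base varied most in each of these groups, so this was not particular to members. Of the members' X-boxes, 53 (37.9%, 30.2 to 46.1) kept 1 arm without mismatch, compared with 43.1% of 253 X-boxes in strong promoter peaks and 53.6% of 2656 in weak replicated peaks outside promoters.

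A further set of members carried the arms in another spacing. In the word above, the arms GTTGCC and GGCAAC are 2 bases apart. A search with 0 to 3 bases between them, and at most 2 mismatches in the 12 arm bases, was added after the data were seen. Arms 1 base apart were present in 64 of 524 members (12.2%, 9.68 to 15.3), compared with 10 of 1048 windows placed 1000 bp to either side (0.954%) and 1.43% of all promoters. The spacing was not particular to members. It was present in 8.62% of weak replicated peaks outside promoters. Among promoter peaks of replicate 1 that met neither replicate 2 nor the combined list, the share was 6.13%. Arms with no base between them were present in 1.34% of members and arms 3 bases apart in 3.82%. Only 4 of the 64 members also held an X-box as defined above, so that an X-box or arms 1 base apart were present in 200 members (38.2%). The following sites of 13 bases, in capitals, are printed because they are without mismatch, rank high among those with 1 mismatch, or lie at genes of the sperm axoneme. They are given in the orientation of the best match.

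Fam110a, chr2:151980262-151980274: ctcctgatGTTGCCTGGCAACccgggtgg
Rae1, chr2:172999978-172999990: ctcaactaGTTGCCTGGCAACtgcgctgg
Hmgcs1, chr13:119689991-119690003: gagctgtgGTTGCTAGGCAACctgacagc
Ube2u, chr4:100478807-100478819: agaggactGTTGCTTGGCAACcagtttgc
Dnaic2, chr11:114727386-114727398: cggccaggGTTGCTAGGCAACtggtaaac
Gas8, chr8:123518875-123518887: tagtcggaGTTGCCAGGAGACcgcgcagc
Dnah9, chr11:66168621-66168633: ttccaccaGTTTCCCAGCAACaacgacgc

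Counted from the 5′ end of these 13 bases, the single mismatch was C6T or G8A in 11 of the 20 sites with 1 mismatch. Both are the innermost base of an arm and are the same change read from the other strand. Hmgcs1 (an enzyme of cholesterol synthesis) and Dnaic2 (an intermediate chain of the outer dynein arm) shared the same 13 bases with C6T. The share of windows with arms 1 base apart was higher in members than in strong promoter peaks, where it was 64 of 843 (7.59%). The difference was 4.62 percentage points (Newcombe 95% interval 1.40 to 8.10, 2-sided Fisher's exact test, p = 0.00548, adjusted p = 0.0110 over 4 tests). It was 4.11 points with windows at the centre of the replicates' overlap (Fisher's exact test, adjusted p = 0.0265), and 2.08 points over whole peaks, where it did not pass (exact p = 0.318). It also missed the threshold without replicate 1 (0.907 points, exact p = 0.555) and without replicate 2 (1.50009 points, exact p = 0.252). For arms 2 bases apart the order was the other way. The share was 20.6% of members and 24.9% of strong promoter peaks at the replicate 1 centre (difference −4.30, exact adjusted p = 0.0754), and 23.5% and 36.3% at the overlap (difference −12.8, exact adjusted p = 2.45e-06). The spacings and the mismatch limit were chosen after the data were seen, on these same windows. None of these p-values, adjusted or not, covers that choice.

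Other members showed neither form. The 200 bp around the centre of the peak between Dnaic1 (another outer arm intermediate chain) and Fam219a, at chr4:41569556-41569755 on the + strand, held no match closer than 6 mismatches and neither GTTGCC nor GTTGCTA on either strand. The 200 bp at the best ranked member, between Hspa1l and Hspa1a, divergently transcribed genes of heat shock proteins, held an X-box with 2 mismatches (C6T and A12G, counted along the X-box) at chr17:34972423-34972436. Both windows lay outside protein-coding transcripts and are printed whole to show the sequence under a weak peak, with the X-box in capitals.

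Dnaic1, chr4:41569556-41569755: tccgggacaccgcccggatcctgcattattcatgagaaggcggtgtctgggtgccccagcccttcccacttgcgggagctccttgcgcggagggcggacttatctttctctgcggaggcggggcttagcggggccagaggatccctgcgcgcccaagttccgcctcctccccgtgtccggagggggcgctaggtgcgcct
Hspa1l, chr17:34972399-34972598: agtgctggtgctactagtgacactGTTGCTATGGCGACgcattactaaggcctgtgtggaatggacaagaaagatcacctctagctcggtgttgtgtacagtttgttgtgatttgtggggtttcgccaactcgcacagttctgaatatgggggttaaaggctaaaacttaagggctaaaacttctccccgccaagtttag

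Of the 384 members without an X-box, 150 (39.1%, 34.3 to 44.0) held GTTGCC or GTTGCTA on either strand, compared with 31.2% of 590 strong promoter peaks without an X-box, 8.87% of the windows 1000 bp away and 10.7% of all promoters. The word GTTGCTA alone was present in 80 of the 384 (20.8%) and in 1.81% of the windows 1000 bp away.

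The scores that chose the members are given as a description. They are the values of the peak caller on a −log10 scale relative to input, of which the files do not say whether they derive from p or q. In replicate 1 the members had scores from 2.14 to 42.0 with a median of 15.5, and in replicate 2 from 2.27 to 31.2 with a median of 8.57. Strong promoter peaks had medians of 79.2 and 39.4. The score was higher in replicate 1 for 407 of the 524 members (77.7%). Members had a median width of 385 bp in replicate 1 and 275 bp in replicate 2, the overlap had a median of 239 bp and the centres lay a median of 57 bp apart. Strong promoter peaks were wider, with medians of 837 bp and 619 bp.

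**Figure D1:**
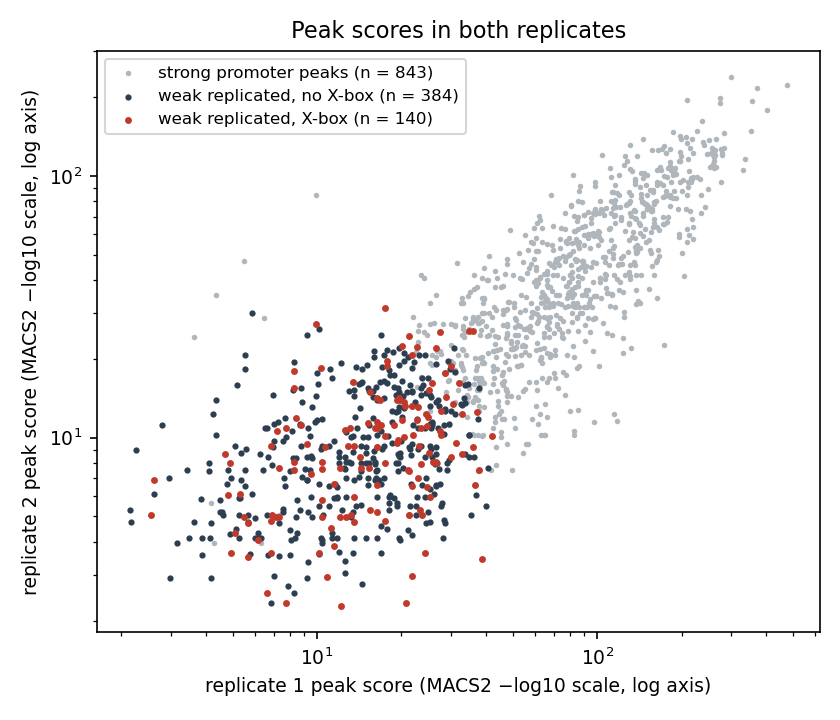
Score of each promoter peak in replicate 1 (x axis) and replicate 2 (y axis), both on the −log10 scale of the peak caller and drawn on log axes; points are weak replicated promoter peaks with an X-box (red), weak replicated promoter peaks without (dark) and strong promoter peaks (grey). Members reached 42.0 in replicate 1 and 31.2 in replicate 2, and red and dark points overlap over nearly the whole range.

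The 10 members of highest mean rank lay at Hspa1l and Hspa1a, Ttc29, Gm10775, Cramp1l, Sult2b1, Mtmr6, Ankmy1, Zfp653, Rabl2 and Rps6kc1. At Hspa1l the score was 35.9 in replicate 1 and 25.6 in replicate 2. At Ttc29, whose product is a protein of sperm flagella, it was 35.0 and 25.6. Both held an X-box, as did the peaks at Cramp1l, Sult2b1 (a cholesterol sulfotransferase), Ankmy1 and Rps6kc1. Rabl2, a small GTPase linked to intraflagellar transport, scored 31.0 and 17.8 and held none. Toward the lower end, the peak at Klf9 scored 3.16 and 3.96, and that between Slc38a6 and Trmt5 scored 4.18 and 2.92.

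The limits of the rule cut through a continuous range. The strong promoter peak with the lowest combined −log10 p, 43.5, lay at Tekt2 (a tektin of the axoneme) and scored 22.7 and 15.7, and 22 members scored above it in both replicates. The next were at Mier1 and Wdr78, with 34.4 and 14.6, and at Ttc30a1 (a subunit of intraflagellar transport), with 30.1 and 18.8. The member at Ankmy1 had the same pair of scores as Ttc30a1. Overlaps between replicates were as short as 18 bp at Hist3h2ba, 27 bp at Cdc26 and Prpf4, and 44 bp at 4931417E11Rik. Replicate 1 promoter peaks at Akap13, Ccng1 and Cib4 missed the nearest replicate 2 peak by 6, 39 and 48 bp. Only 5 members lay within 1000 bp of a combined peak, and 4 had a gene that carried a combined peak elsewhere in its promoter.

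The rule keeps peaks near a TSS, and within that range most members lay close to it. Centres lay a median of 74.5 bp upstream, 441 of 524 (84.2%) were within 500 bp and 186 (35.5%) within 100 bp of the nearest TSS. Of the centres, 320 (61.1%) fell outside protein-coding transcripts, 117 (22.3%) in untranslated exon sequence, 68 (12.98%) in introns and 19 (3.63%) in coding exons. Upstream centres made up 66.8% of members and 63.6% of strong promoter peaks, a difference of 3.21 points (interval −2.01 to 8.32, Fisher's exact test, adjusted p = 0.325 over 4 features). Without replicate 2 it was 5.30 points and passed (exact adjusted p = 0.0128).

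The X-box share of members varied with the distance to the TSS. It was present in 29 of 65 members centred more than 500 bp upstream (44.6%, 33.2 to 56.7), in 22 of 87 centred 200 to 500 bp upstream (25.3%, 17.3 to 35.3) and in 33 of 198 centred up to 200 bp upstream (16.7%, 12.1 to 22.5). Downstream it was present in 30 of 111 centred within 200 bp (27.03%, 19.6 to 36.0) and in 26 of 63 centred more than 200 bp downstream (41.3%, 30.0 to 53.6). Over 200 bp from the TSS the share was 36.0% of 214 members and within 200 bp 20.3% of 310, a difference of 15.7 points (7.85 to 23.5, Fisher's exact test, p = 8.59e-05). This split was chosen after the data were seen. With promoters of 500 bp upstream to 50 bp downstream, the difference was 7.66 points and did not pass (exact p = 0.102). Among peaks of replicate 1 taken without replicate 2 it was 1.24 points, and of replicate 2 taken without replicate 1 it was 3.74 points.

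**Figure D2:**
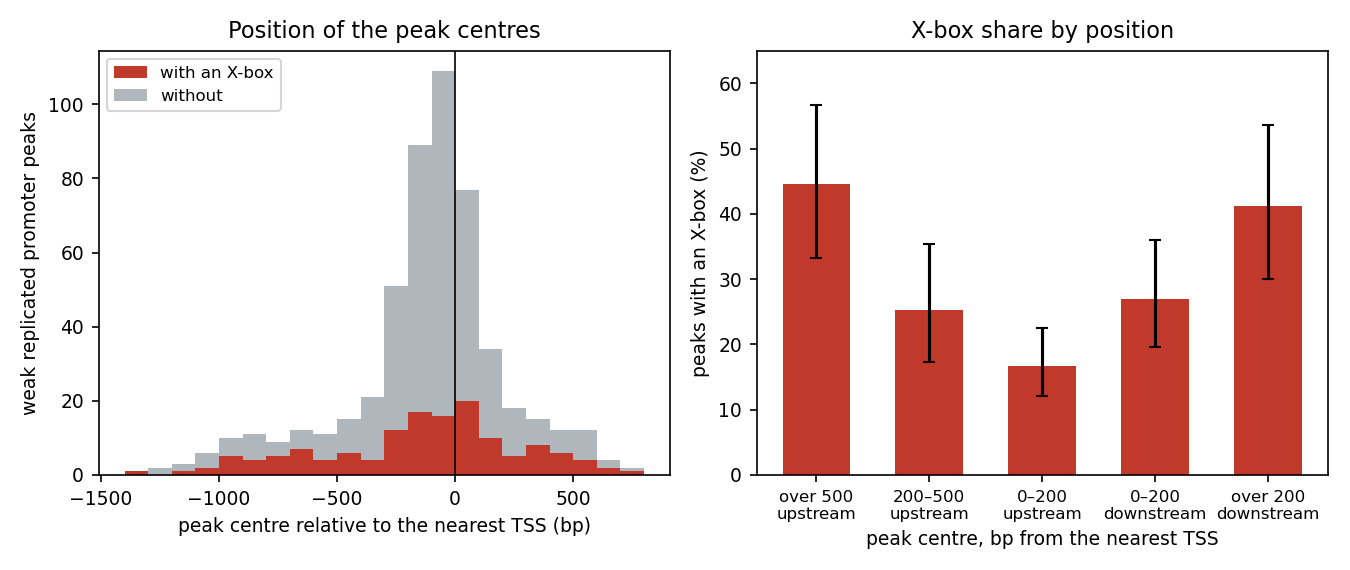
Left, number of weak replicated promoter peaks per 100 bp of distance between the peak centre and the nearest TSS (negative is upstream), with X-box in red and without in grey; right, percentage with an X-box in 5 classes of distance, with 95% Wilson intervals. The share is lowest, 16.7%, up to 200 bp upstream and highest, 44.6%, more than 500 bp upstream.

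An X-box was present in 140 of 524 members (26.7%, 23.1 to 30.7). It was present in 9 of 1048 windows 1000 bp to either side (0.859%, 0.452 to 1.62) and in 547 of 21853 windows of 200 bp around a TSS (2.50%). Promoter peaks of replicate 1 that met neither replicate 2 nor the combined list held one in 87 of 620 cases (14.03%), 12.7 points less than members (8.02 to 17.4, Fisher's exact test, adjusted p = 1.59e-07 over 3 comparisons). Weak replicated peaks outside promoters held one in 2656 of 4779 cases (55.6%), 28.9 points more than members (difference −28.9, −32.7 to −24.7, exact adjusted p = 1.59e-36). Their replicate scores had medians of 13.4 and 6.03. Peaks are not independent samples, and these p-values compare peaks of the same 2 mice. When a replicate was left out, replication was no longer asked for and both groups held other peaks. The difference from peaks outside promoters was then −0.160 without replicate 2 (exact adjusted p = 0.940). Without replicate 1 it was 1.14 (exact adjusted p = 0.408).

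The comparison with strong promoter peaks changed its call with the window, the promoter definition and the replicates used. Around the replicate 1 centre, 253 of 843 held an X-box (30.0%), and the difference of −3.29 points was not past the threshold (−8.10 to 1.66, exact adjusted p = 0.197). Around the centre of the replicates' overlap, the shares were 29.0% of members and 41.9% of strong promoter peaks (difference −12.9, exact adjusted p = 1.65e-06). Over 400 bp the difference was −17.4 points, and with strong promoter peaks read around the combined summit it was −29.5 points. Members have no combined summit, so this last value sets unlike windows side by side. With the window left in place, the difference was −6.55 in promoters of 500 bp upstream to 50 bp downstream (exact adjusted p = 0.0161), −18.0 without replicate 1 (exact adjusted p = 4.24e-16) and −9.47 without replicate 2 (exact adjusted p = 2.19e-06). The X-box word was picked from summits of the combined list, which strong promoter peaks meet by definition and members do not. The comparison is therefore not independent of how the word was chosen.

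**Figure D3:**
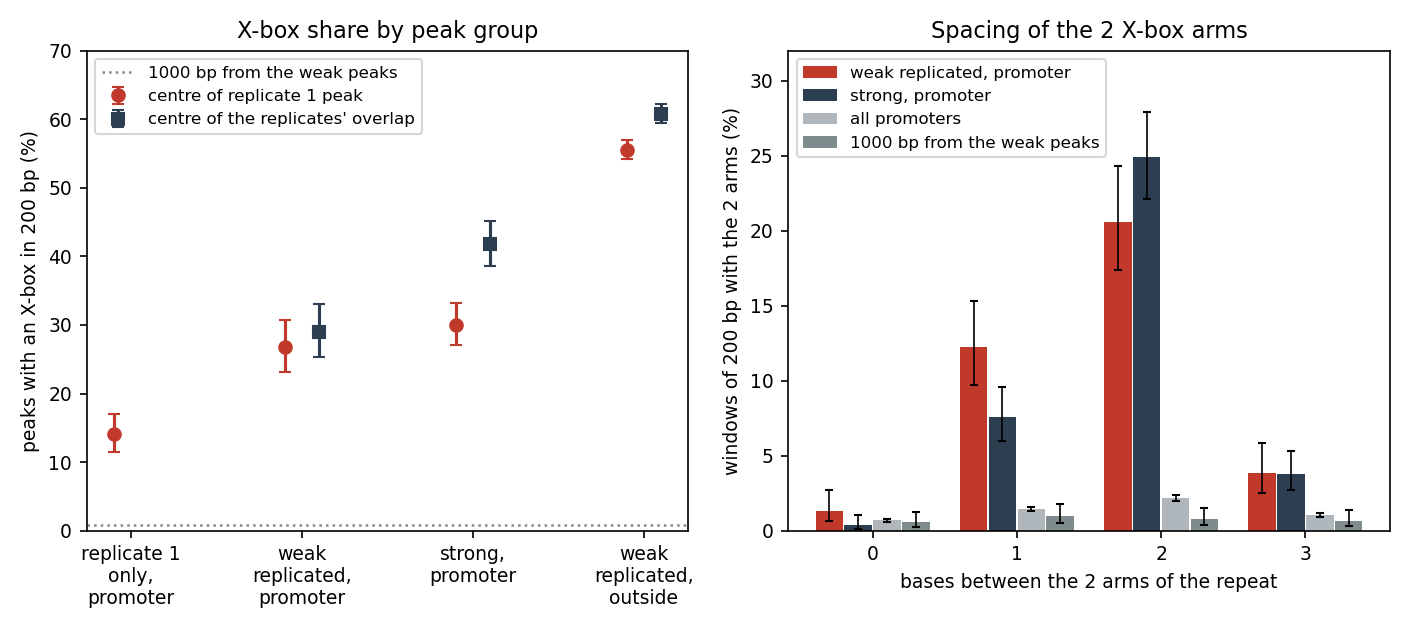
Left, percentage of peaks with an X-box within 200 bp in 4 groups of peaks, read around the replicate 1 centre (circles) or the overlap of the replicates (squares), with 95% Wilson intervals and the share 1000 bp from the members as a dotted line; right, percentage of windows with the 2 arms at a spacing of 0 to 3 bases. Members lie between peaks of replicate 1 only and the weak replicated peaks outside promoters, and at a spacing of 1 base their bar, 12.2%, stands above that of strong promoter peaks, 7.59%.

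Members were also divided by score into 4 classes of 131. The X-box share was 32.8% in the class of highest replicate 1 score and 22.1% in the lowest, with overlapping intervals (25.4 to 41.3 and 15.9 to 30.0). By replicate 2 score, from high to low, the classes gave 25.2%, 31.3%, 23.7% and 26.7%, without an order. Of the 140 X-boxes, 78 (55.7%) lay within 50 bp of the peak centre and 45 (32.1%) within 100 bp of the TSS.

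The presence of every word of 8 bases on either strand was also compared between windows, a search added after the data were seen. Against all other promoters, 101 of 32893 words, or 0.307%, were more frequent in members (Fisher's exact test, adjusted p under 0.05) and 9 were less frequent. The first was ATGGCAAC, in 9.16% of members and 0.752% of other promoters, which is part of the X-box. The next was CTAGCAAC, in 9.35% and 0.931%, whose reverse complement begins with an arm that carries the change C6T described above. Of the 101 words, 46 held GTTGC on either strand. Against windows 1000 bp away, 307 of 31826 words, or 0.965%, were more frequent, led by GCCCCGCC in 15.8% and 1.53%, a word of G and C only. Against strong promoter peaks 0 of 31769 words, or 0%, differed after adjustment (Fisher's exact test, smallest adjusted p = 0.904), while 757 had an unadjusted p under 0.05.

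Other promoter motifs were searched in the same windows. The CCAAT box, the site of NF-Y, was present in 32.3% of members and 29.5% of strong promoter peaks (difference 2.71, −2.28 to 7.80). The GC box, searched as GGGCGG and bound by SP1, was present in 37.0% and 30.4% (difference 6.66, 1.52 to 11.8, Fisher's exact test, p = 0.0129, adjusted p = 0.116 over 9 motifs), compared with 40.5% of all promoters. The ETS site CCGGAAG was present in 9.35% and 10.1%. None of the 9 motifs passed the adjusted threshold by Fisher's exact test, and only the GC box had an unadjusted p under 0.05.

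The G+C content of the windows was 56.9% ± 9.13 (SD, n = 524) in members and 55.2% ± 8.84 (SD, n = 843) in strong promoter peaks. The difference of 1.69 points passed a 2-sided permutation test (100000 resamples, p = 0.000750, adjusted p = 0.00300), while all promoters had 58.8% ± 11.98. With windows at the overlap of the replicates the difference was 0.908 and did not pass (permutation test, adjusted p = 0.102), and the direction turned when a replicate was left out. Without replicate 1 it was −0.795 (permutation test, adjusted p = 0.1503), and without replicate 2 it was −2.04, which passed (permutation test, adjusted p = 4.00e-05). Divergent promoters, which serve 2 genes in opposite directions, were met by 59 members (11.3%) and by 138 strong promoter peaks (16.4%), a difference of −5.11 points (−8.71 to −1.31, Fisher's exact test, adjusted p = 0.0179). With a reciprocal overlap of 50% between replicates this difference was −4.47 and did not pass (exact adjusted p = 0.103). The X chromosome held 9 members (1.72%) and 1.30% of strong promoter peaks (exact adjusted p = 0.644), although without replicate 2 the difference was 2.92 points and passed (exact adjusted p = 0.000112). On this chromosome, 13 of its 948 genes (1.37%) carried a member against 566 of 20722 autosomal genes (2.73%).

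Genes in lists of axonemal and ciliary genes carried a member more often than protein-coding genes at large. Of 238 genes in 12 ciliary lists, 123 had a combined promoter peak, against a background of 4.48% of protein-coding genes. A weak replicated one was present at 29 (12.2%), against a background of 2.65%. Of the 115 list genes without a combined promoter peak, 29 (25.2%, 18.2 to 33.9) had a weak one, against 2.75% of all 20873 genes without a combined promoter peak. A further 11 list genes had a peak in replicate 1 only and 4 in replicate 2 only. The lists were chosen with earlier results of these data known, so the counts are a description. Beside each gene named below, the scores in replicates 1 and 2 are given in that order.

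Dynein arm genes made up the largest group. The dynein arms are the motors that bend the axoneme, and 8 of 29 arm and docking genes had a weak replicated peak, beside 9 with a combined one. They were the outer arm intermediate chains Dnaic1 (20.2 and 16.4) and Dnaic2 (14.1 and 16.0), the outer arm light chain Dnal1 (14.1 and 7.09) and the outer arm heavy chain Dnah9 (14.5 and 2.77). The inner arm was represented by the light intermediate chain Dnali1 (29.1 and 7.998) and the heavy chains Dnah1 (26.6 and 6.61), Dnah7a (8.87 and 13.7) and Dnah7c (12.6 and 3.04). Dnah7a and Dnah7c are near-identical copies, and reads with several locations were discarded by the authors, so their scores are uncertain. Of 16 cytoplasmic assembly factors of the arms, Ruvbl1 (25.7 and 8.45) and Cfap300 (13.04 and 8.10) had a weak peak and 10 a combined one.

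The nexin-dynein regulatory complex links neighbouring doublets and regulates the arms. Together with its ruler proteins it had 13 listed genes, of which 8 had a combined peak, 4 a weak replicated one and 1 a peak in replicate 1 only. The weak ones were Gas8 (19.7 and 22.1), Drc1 (24.9 and 12.003), Tcte1 (13.7 and 5.47) and Iqcd (4.24 and 12.3). Among the 16 radial spoke genes, Rsph9 of the spoke head (16.4 and 9.19) and Cfap206 of the spoke base (12.4 and 7.66) had a weak peak. Spag6 of the central pair apparatus (4.94 and 6.99) was the only one of 15 central pair genes with a weak peak, where 13 had a combined one. Mns1, a protein of the doublet lumen, scored 17.8 and 21.7.

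Many transport and gating genes had a combined peak, which the rule leaves out. Of 18 subunits of intraflagellar transport complex B, 13 had a combined peak and 0 a weak one. Ift43 (19.8 and 8.44) and Tulp3 (10.202 and 6.68), of complex A and its membrane adaptor, had weak peaks. Kif3b, a motor subunit of kinesin-2, scored 25.4 and 6.38, and none of the 5 kinesin-2 genes had a combined peak. Bbs2 of the BBSome, a membrane cargo complex, scored 10.4 and 11.8, with the peak centred 596 bp downstream of the TSS. The transition zone, the gate at the ciliary base, had weak peaks at genes that included Ahi1 (17.4 and 31.2) and Rpgr on the X chromosome (13.04 and 15.1). The score of 31.2 at Ahi1 was the highest of any member in replicate 2.

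At the centriole and basal body, 4 of 49 genes had a weak peak and 12 a combined one. They were Cep135, a protein of the centriole wall (27.5 and 10.6), the distal appendage genes Cep164 (15.9 and 14.3) and Sclt1 (12.003 and 8.45), and Pcm1 of the centriolar satellites (17.8 and 4.46). Cep164 carried a second member, with scores of 2.16 and 4.78, and was 1 of 9 genes with more than 1 member.

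**Figure D4:**
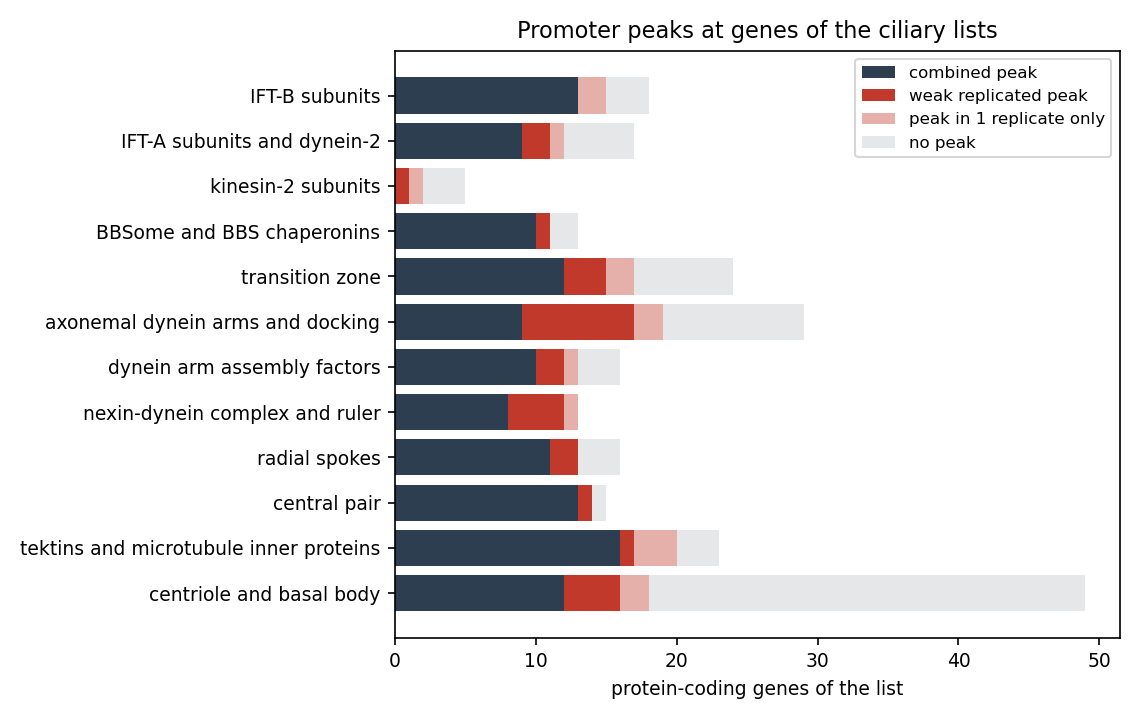
Number of protein-coding genes in each of 12 ciliary lists (x axis) with a combined promoter peak, a weak replicated promoter peak, a peak in 1 replicate only or no peak. Weak replicated peaks were present at 8 of 29 dynein arm genes and 4 of 13 genes of the nexin-dynein complex and ruler, and at 0 of 18 genes of intraflagellar transport complex B.

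Few weak peaks at ciliary genes held an X-box. Of the 30 members at these genes 3 held one (Wilson interval 3.46% to 25.6%), namely those at Ahi1, Drc1 and Cep135, each with 3 mismatches. The share was 27.7% of the 494 other members (23.97 to 31.8) and 25.8% of the 124 strong promoter peaks at genes of the same lists. Most of the 30 were centred within 200 bp of the TSS, where 20.3% of all members held an X-box. The shares were not compared at equal distance to the TSS. Arms 1 base apart were present in 7 of the 30 (23.3%, 11.8 to 40.9), at Dnaic2, Gas8, Mns1, Cep135, Cep164, Dnah7c and Dnah9, with the sites of Dnaic2, Gas8 and Dnah9 among those printed above. These splits were made after the data were seen and were not tested.

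Lists of other germ cell programmes held few genes with a weak peak. Their shares stand beside a background of 2.65% of protein-coding genes. The counts are small and were not tested against it. Of 21 genes listed for the control of ciliary and spermatogenic programmes, 2 (9.52%) had a weak peak. Ccno, which acts in multiciliated cell differentiation, scored 8.26 and 17.98. Gtf2a1l, the germ cell form of a TFIIA subunit, scored 2.80 and 11.2. None of the 10 RFX family genes had a weak replicated peak, while 3 had a combined one. Of 24 enzymes that add or remove glutamates and related residues on tubulin, 4 (16.7%) had weak peaks. They were Ttll8 (33.8 and 16.0), Ttll13 (16.0 and 21.4), Ttll4 (13.6 and 14.5) and Ttll7 (5.76 and 3.58). Of 38 genes of meiotic prophase, the meiotic cyclin Ccna1 (27.7 and 12.6) and the cohesin subunit Rec8 (5.31 and 5.86) had one, which is 5.26% of the list.

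None of the 26 genes of the piRNA pathway and chromatoid body had a combined promoter peak. Weak ones were present at 2 (7.69%, beside the background of 2.65%). They were Ybx2, which stores germ cell mRNA (15.9 and 11.9), and Asz1 (4.90 and 7.998). The 28 late haploid sperm genes had no combined promoter peak either, and 3 (10.7%) had weak ones. They were Akap3 of the fibrous sheath (25.3 and 5.95), Odf1 of the outer dense fibres (10.4 and 8.10) and Spa17 (5.12 and 4.47). Catsperg1, an auxiliary subunit of the sperm calcium channel, was the only gene of 11 CatSper genes with a weak peak (9.09%). It carried 2 members. The upstream one scored 42.0 and 10.197, the highest replicate 1 score of any member, and the other 21.2 and 5.06, and each held an X-box with 2 mismatches. Gli1, the transcriptional effector of Hedgehog signalling, scored 6.91 and 5.06. It was the only gene of 20 in the Hedgehog pathway list with a weak peak (5%). None of 24 acrosome genes had a weak peak.

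Families taken by symbol gave a range of shares around the background of 2.65%. The Cfap family of flagellar proteins had 5 of 31 (16.1%, led by Cfap99, Cfap157, Cfap300 and Cfap73), beside 22 with a combined peak. The Ttc family had 5 of 42 (11.9%, led by Ttc29 and Ttc21a) and the Ccdc family 8 of 139 (5.76%, led by Ccdc89 and Ccdc92). Families without a known ciliary role included subunits of respiratory complex I, with 3 of 36 (8.33%), mitochondrial ribosomal proteins, with 3 of 78 (3.85%), Zfp zinc finger genes, with 13 of 394 (3.30%), and cytosolic ribosomal proteins, with 2 of 83 (2.41%). Olfactory receptors had 2 of 1134 (0.176%), at Olfr111 and Olfr112. None of 40 proteasome genes had one.

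Several genes that the study names carried a member, among them Dnaic2, Drc1, Rsph9, Ccno and Ybx2, whose scores are given above. Gtf2a1l did too, and its replicate 1 score of 2.80 lay near the lower end and its replicate 2 score of 11.2 lay above the median of members. At the promoter of Nphp4 a peak scored 3.92 in replicate 1, and the other lists held none there. Nek8, Rab27b, Fscn1 and Fndc3c1 had no promoter peak in any list. Tekt4 (109 and 35.9) and Dync2li1 (182 and 83.0) had combined promoter peaks with −log10 p of 112 and 244 and scored above every member in both replicates.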

How the data were processed

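ChIP-seq reads of 2 RFX2 ChIP libraries and 2 inputs were mapped by the authors with Bowtie 0.12.7, keeping uniquely mapped reads only, and peaks were called against input with MACS2 2.0.10.20130520. Replicate 2 was sequenced again, and reads of that run with a human match were discarded, which can also remove mouse reads from conserved sequence. The deposited replicate lists hold 1 value per peak on a −log10 scale, with no statement of p-value or q-value. The deposited combined list holds a score, a fold ratio of enrichment, −log10 p and −log10 q. The authors' methods describe reproducible peaks kept by the irreproducible discovery rate between replicates. Whether the combined list is that set is not stated; it was treated here as a call on pooled reads cut by rank, and the archive attaches it to replicate 2. Inputs entered through the peak calls only, and depth is unknown.

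Groups came from sample titles. Sequence and genes came from GRCm38 patch 6 and GENCODE mouse release 21 (lists: Ensembl release 70). Overlaps, X-box searches and tests were run in Python 3.11.15 with scipy 1.17.1 and pysam 0.24.0, and were tested on simulated data. Fisher's exact test with Newcombe intervals, a permutation test and Benjamini-Hochberg adjustment were used. Genes were named by rank, X-box mismatches, list membership or mention in the study. Genes of the sites with arms 1 base apart, genes with several members and the windows printed whole were chosen after their values were seen. The members and lists were chosen with earlier results of these data known. Some genes covered by the naming rule are not reported here.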

Additional observations from a re-analysis of the deposited data

Results flagged for a closer look

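The promoter peaks found in replicate 2 only entered no comparison. Of 286 such peaks that met neither replicate 1 nor the combined list, 22 held an X-box (7.69%, 5.13 to 11.4), against 6 of 572 windows 1000 bp away (1.05%, 0.482 to 2.27). Their median score was 4.73, below that of the members in the same replicate.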

How the results depend on the processing

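Of 188 recomputed values, 138 were classed as unchanged. For tests this meant the same direction and side of the threshold, and for shares a value within the interval reported. Counts have no interval and were classed as unchanged within a fixed ratio of the count reported, which is a loose criterion. The X-box share of members (26.7%) was 22.7% with promoters of 500 bp upstream to 50 bp downstream, 11.8% with at most 2 mismatches, 33.0% over whole peaks and 32.6% over 400 bp, and 1000 bp away it was 0.382% with 2 mismatches and 1.72% over 400 bp. The difference from strong promoter peaks passed the threshold in the narrow promoters (−6.55), over whole peaks (−23.8), over 400 bp (−17.4), at the replicates' overlap (−12.9) and at the combined summit (−29.5). Differences in G+C (0.908 at the overlap), divergent promoters (−4.47 with reciprocal overlap), distance to the TSS (7.66) and arms 1 base apart (3.39 in narrow promoters, 2.08 over whole peaks) then missed it. The count of motifs that differed rose from 0 to 9 over whole peaks, and to 1 with reciprocal overlap, narrow promoters, centres inside promoters, 400 bp or the overlap. The words more frequent than 1000 bp away numbered 1788 over whole peaks, 1148 over 400 bp and 497 at the overlap, and words that differed from strong promoter peaks 4082 over whole peaks. The strong peaks are wider, so that whole peaks compare unequal lengths.

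Without one replicate the rule no longer asks for replication, and the groups are others. The members then numbered 811 to 1144 and their genes 855 to 1190. The X-box share was 19.84% to 19.85%, the difference from strong promoter peaks −18.0 to −9.47 and that from peaks outside promoters −0.160 to 1.14. The latter did not pass without either replicate. The G+C difference was −2.04 to −0.795 and the upstream difference −0.494 to 5.30, both against the direction reported in at least 1 case, and that of the X chromosome 0.235 to 2.92. All 3 passed without replicate 2. The difference by distance to the TSS was 1.24 to 3.74 and that of arms 1 base apart 0.907 to 1.5001, none of which passed. Motifs that differed numbered 1, words against 1000 bp away 370 to 507 and against strong promoter peaks 0 to 1. Ciliary genes numbered 33 to 46, and their share 28.7% to 34.8%. No paired analysis was possible, because only the 2 ChIP samples have peak lists. The inputs share their replicate numbers but have no lists of their own. The cause of these changes was not tested.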
